A study of Mus musculus with 17 samples.

Results

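The unfolded protein response and the folding machinery of the endoplasmic reticulum (ER) were followed through 41 genes across 5 genotypes of mouse pancreatic islets profiled on Affymetrix arrays. The genes were listed by symbol: 30 belong to the ER arm and 11 to the Atf4-Ddit3 arm. The ER arm holds 11 chaperones and cochaperones, 4 disulfide isomerases, 7 genes of ER-associated degradation, 3 genes of the translocon and a sensor group of 5. That group is Ern1, Eif2ak3 and Atf6, which encode sensors, with Xbp1 and Wfs1, which do not. All 41 of 41 listed genes were measured, out of 19938 genes on the array. Each gene was read from 1 probe set annotated to that gene alone, the one with the highest mean over the 17 arrays.

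The islets came from untreated mice of 2 months. The groups were Men1flf Rbp2flf RIP-Cre (4 arrays, called the double group here), Men1flf RIP-Cre (3 arrays), Rbp2flf RIP-Cre (4 arrays), RIP-Cre (3 arrays) and wt (3 arrays). Cre runs from the rat insulin promoter (RIP), so deletion is directed to beta cells and the other cells of a whole islet keep the floxed genes; the 3 floxed groups and the RIP-Cre group all carry Cre, and RIP-Cre islets served as the control. Titles give each array a repeat number without naming the animal behind it, so every p-value here covers the spread between arrays and no more. Levels are on the log2 scale of array intensity. Fold changes compare a floxed group with RIP-Cre islets, and a gene is said to have risen or fallen where the limma fit over all genes gave an adjusted p (Benjamini-Hochberg) under 0.05. The 3 comparisons share the same 3 RIP-Cre arrays, so their values are set side by side and are not independent of each other.

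Proteins that enter the secretory pathway are threaded into the ER through the translocon and folded there by chaperones and disulfide isomerases. Proteins that do not fold are pulled back out and degraded, a route called ER-associated degradation (ERAD). When unfolded protein builds up, the sensors Ire1 (gene Ern1), Perk (gene Eif2ak3) and Atf6 signal to the nucleus: Ire1 splices the mRNA of Xbp1, Atf6 is cleaved to a transcription factor, and both raise chaperone and ERAD genes. Perk slows translation and favours that of Atf4, a factor that drives amino acid and stress genes, Ddit3 (Chop) among them. Beta cells make large amounts of proinsulin and depend on this machinery. Men1 encodes menin, a tumour suppressor of endocrine tissue, and Rbp2 is an older name of Kdm5a, a histone demethylase.

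The short sequences through which this response acts were looked up in RefSeq promoter windows of GRCm38.p6, from 250 bases before to 50 bases after the annotated start, which were at hand for 36 of the 41 genes (25 of the ER arm, 11 of the Atf4-Ddit3 arm). Both strands were searched. The genes were listed for their part in this response or in ER folding, and the motifs are elements of the same response. The motif counts here and below therefore describe the list and are not a test of it. The ER stress element (ERSE), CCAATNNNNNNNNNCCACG, was found in 9 of the 25 ER-arm windows and 0 of the 11 others, against 0.119% of all 32851 windows. The windows that hold it are shown first because their genes are chaperones, an isomerase, a derlin and a ubiquitin ligase described further on. Letters are those of the gene's strand from 5′ to 3′, and capitals mark the fixed letters of the motif, which reads CGTGG and then ATTGG where the motif lies on the other strand. Hsp90b1 holds the motif at 2 places, and the one farther from the start is shown.
Hspa5, chr2:34772013-34772055, plus strand: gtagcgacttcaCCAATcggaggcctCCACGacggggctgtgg
Hsp90b1, chr10:86705626-86705668, minus strand: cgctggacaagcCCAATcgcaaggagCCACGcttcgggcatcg
Canx, chr11:50325788-50325830, minus strand: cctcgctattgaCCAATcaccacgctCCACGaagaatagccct
Calr, chr8:84847063-84847105, minus strand: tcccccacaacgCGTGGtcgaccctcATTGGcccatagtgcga
Dnajc3, chr14:118937815-118937857, plus strand: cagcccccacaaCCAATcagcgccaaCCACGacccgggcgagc
Creld2, chr15:88819508-88819550, plus strand: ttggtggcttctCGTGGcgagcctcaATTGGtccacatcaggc
Pdia6, chr12:17266479-17266521, plus strand: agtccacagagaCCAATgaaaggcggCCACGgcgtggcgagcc
Syvn1, chr19:6046520-6046562, plus strand: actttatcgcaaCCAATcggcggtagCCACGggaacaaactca
Derl3, chr10:75893230-75893272, plus strand: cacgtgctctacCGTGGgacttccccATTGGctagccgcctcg

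The second form, ERSE-II (ATTGGNCCACG), was found in the windows of Herpud1 and Dnajb11, 2 of 25 ER-arm genes, against 0.0365% of all windows. The unfolded protein response element UPRE (TGACGTGG) was found in 0 of the 36 windows (0.676% of all windows). The C/EBP-ATF response element (CARE), TGATGNAA, at which Atf4 binds with a C/EBP partner, was found in 6 of the 11 Atf4-Ddit3 windows (Atf3, Trib3, Asns, Chac1, Nupr1 and Slc7a11) and in 1 of the 25 ER-arm windows, that of Herpud1, against 3.97% of all windows. With the open letter set to C (TGATGCAA) it was in 4 of the 11 Atf4-Ddit3 windows, against 0.895% of all windows. The Herpud1 window is shown because it holds both kinds of element and its gene belongs to the ER arm, and the Asns, Chac1 and Atf3 windows as examples of the CARE in the Atf4-Ddit3 arm.
Herpud1 ERSE-II, chr8:94386365-94386399, plus strand: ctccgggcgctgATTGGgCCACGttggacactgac
Herpud1 CARE, chr8:94386305-94386336, plus strand: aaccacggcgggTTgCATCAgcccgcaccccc
Asns CARE, chr6:7693213-7693244, minus strand: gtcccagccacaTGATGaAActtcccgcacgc
Chac1 CARE, chr2:119351037-119351068, plus strand: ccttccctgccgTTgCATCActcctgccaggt
Atf3 CARE, chr1:191183424-191183455, minus strand: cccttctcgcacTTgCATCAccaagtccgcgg

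**Figure D1:**
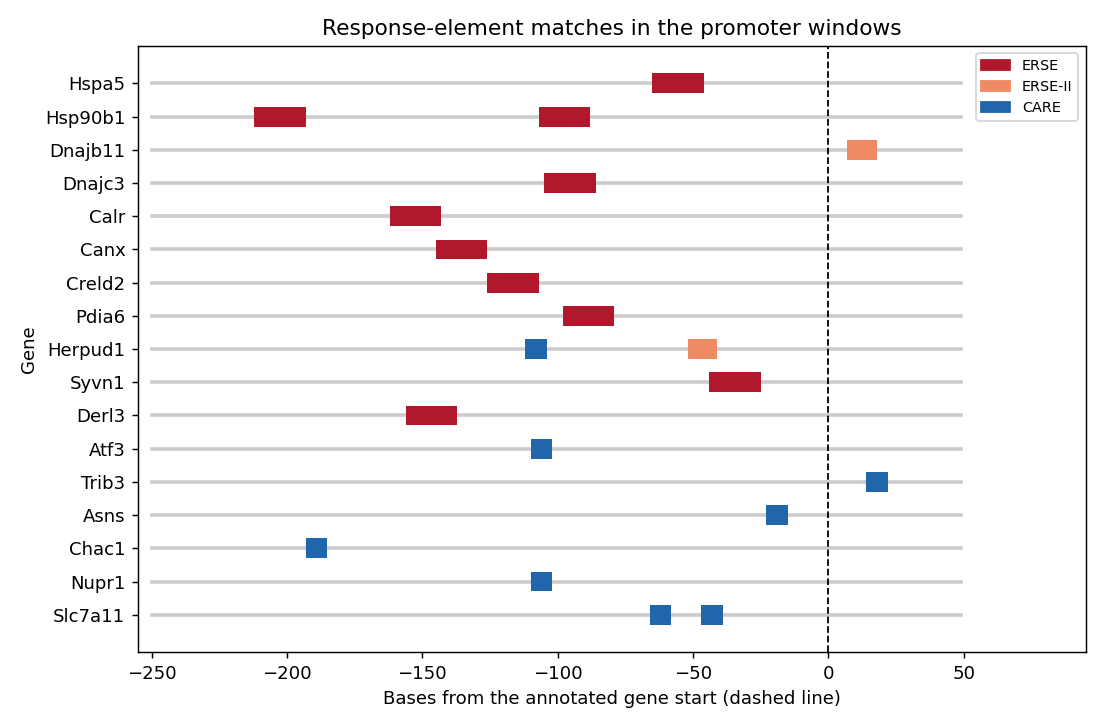
Position of each motif match in the promoter windows of the members, in bases from the annotated start, with 1 line per gene and the motifs ERSE, ERSE-II and CARE told apart by colour. The ERSE matches lie in ER-arm genes and all but 1 of the genes with a CARE match are in the Atf4-Ddit3 arm.

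Most genes of the ER arm rose in each of the 3 floxed groups. In the double group 20 of its 30 genes rose and 1 fell, where 13.0% of all genes on the array rose and 20.6% fell. In Men1flf RIP-Cre islets 20 rose and 1 fell, where 15.7% of all genes rose and 37.8% fell. In Rbp2flf RIP-Cre islets 20 rose and 0 fell, where 6.7% of all genes rose and 6.7% fell. The median log2 fold change of the 30 genes was 0.51 in the double group, 0.55 in Men1flf RIP-Cre and 0.51 in Rbp2flf RIP-Cre islets. The median over all genes was -0.15 in the double group, -0.23 in Men1flf RIP-Cre and -0.13 in Rbp2flf RIP-Cre islets. In 22 of the 30 genes every array of the double group was above every RIP-Cre array (14.2% of all genes), in 23 every array of Men1flf RIP-Cre (18.7%) and in 23 every array of Rbp2flf RIP-Cre (11.6%). Of the 11 genes of the Atf4-Ddit3 arm, 1 rose and 1 fell in the double group, 1 rose and 4 fell in Men1flf RIP-Cre islets, and 1 rose and 0 fell in Rbp2flf RIP-Cre islets, shares near those over all genes. The gene that rose was Asns each time. The arms also differ in brightness, as given below, and the difference between them was not tested.

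**Figure D2:**
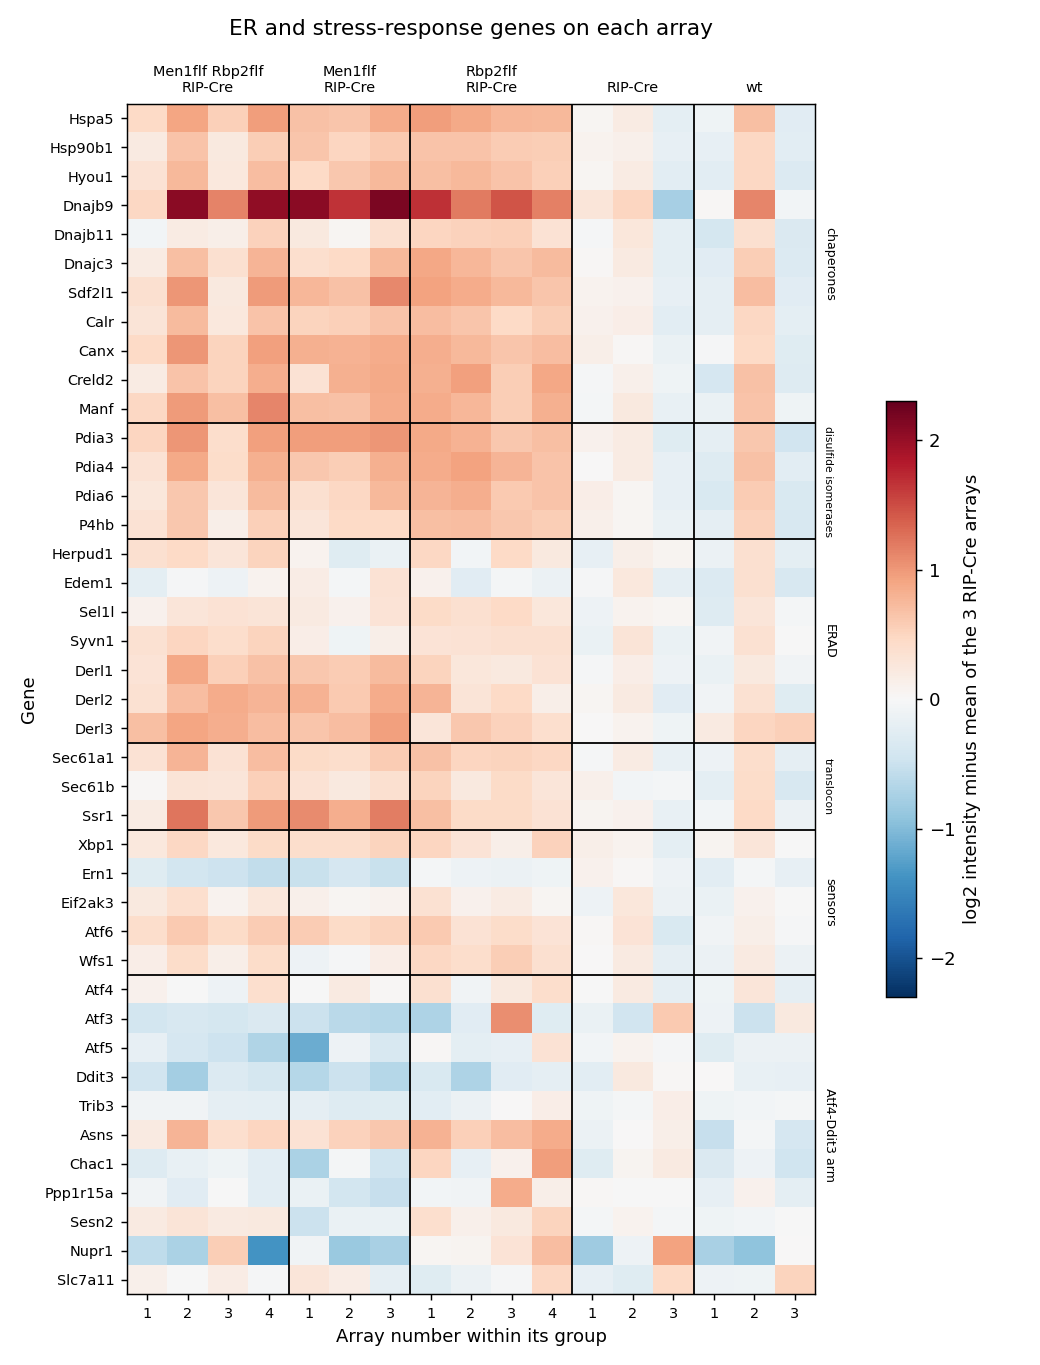
Heat map of the 41 genes by the 17 arrays, as log2 value minus the mean of the 3 RIP-Cre arrays, with genes ordered by role and arrays ordered from the double group to wt. Most chaperones and isomerases are above 0 on the floxed arrays and on wt array 2, and Ern1 and Ddit3 are below 0 on all arrays of the double group and of Men1flf RIP-Cre.

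These counts change with the scaling of the arrays and with 1 control array. The probe sets of the ER arm are bright: 26 of 30 lie between 10 and 14.52 in mean, the brightest of 10 equal level classes, and in that class 39.8% of all genes rose in the double group, 40.7% in Men1flf RIP-Cre and 25.7% in Rbp2flf RIP-Cre islets. The median of that class was 0.21 in the double group, 0.20 in Men1flf RIP-Cre and 0.18 in Rbp2flf RIP-Cre islets. Of the 11 Atf4-Ddit3 genes 4 lie in that class and 3 in the class from 8.40 to 8.86. In the latter class 15.9% of all genes rose and 20.8% fell in the double group. The shares there were 21.2% and 30.8% in Men1flf RIP-Cre, and 7.27% and 5.81% in Rbp2flf RIP-Cre islets. The arms are thus not matched in brightness. The median of an array was 7.88 to 7.95 in the double group, 7.86 to 7.87 in Men1flf RIP-Cre, 7.82 to 7.98 in Rbp2flf RIP-Cre, 7.97 to 8.16 in RIP-Cre and 7.99 to 8.10 in wt islets. After cyclic loess, which removes differences between arrays that follow brightness, the median over all genes was -0.01 in the double group, -0.02 in Men1flf RIP-Cre and -0.01 in Rbp2flf RIP-Cre islets. The ER-arm medians were then 0.18 in the double group, 0.21 in Men1flf RIP-Cre and 0.28 in Rbp2flf RIP-Cre islets. After this step 8 genes of the ER arm rose and 1 fell in the double group (13.9% and 11.4% of all genes), 10 rose and 2 fell in Men1flf RIP-Cre (18.4% and 16.0%), and 6 rose and 1 fell in Rbp2flf RIP-Cre islets (5.61% and 3.81%). With the median of each array as a covariate 2 ER-arm genes were called in the double group (1.4% of all genes), 2 in Men1flf RIP-Cre (1.99%) and 0 in Rbp2flf RIP-Cre islets (0.211%).

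RIP-Cre array 3 had the highest array median and the lowest value of its group in 26 of the 30 ER-arm genes. Without it, 5 ER-arm genes were called in the double group (2371 of all 19938 genes), 12 in Men1flf RIP-Cre (6174) and 0 in Rbp2flf RIP-Cre islets (223). With all arrays 6716 of all genes were called in the double group, 10660 in Men1flf RIP-Cre and 2672 in Rbp2flf RIP-Cre islets. The ER-arm count in the double group was 12 without its array 2 (3958 of all genes) and 12 without its array 4 (3619). In Rbp2flf RIP-Cre islets it was 1 without array 1 of that group (353 of all genes) and 3 without array 2 (920). The ER-arm median without RIP-Cre array 3 was 0.39 in the double group and 0.43 in Rbp2flf RIP-Cre islets. In wt islets array 2 was the highest of its group in 29 of 30 ER-arm genes. Within the double group arrays 2 and 4 were both above arrays 1 and 3 in 26 of 30 ER-arm genes, among them 11 of 11 chaperones, and in 3 of 11 genes of the Atf4-Ddit3 arm.

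**Figure D3:**
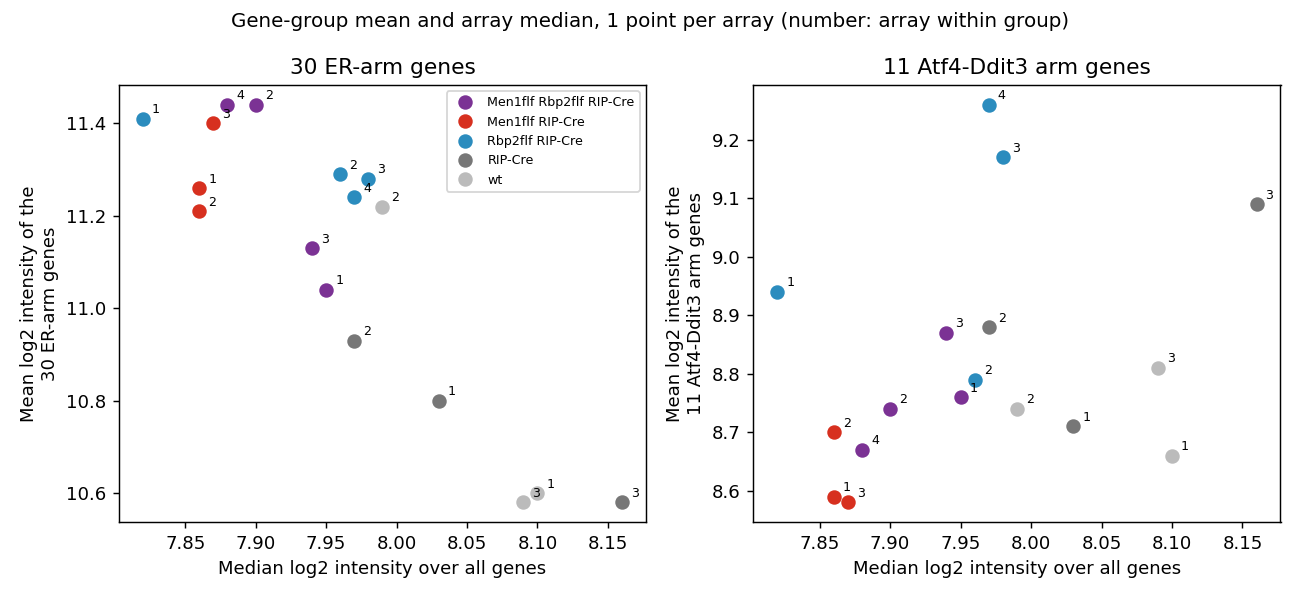
Median log2 value of each array (horizontal) against the mean log2 value of the 30 ER-arm genes and of the 11 Atf4-Ddit3 genes on that array (vertical), coloured by group. The ER-arm mean is 11.04 to 11.44 in the double group and 10.58 to 10.93 in RIP-Cre islets, and RIP-Cre array 3, with the highest median, has the lowest ER-arm mean of its group.

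Chaperones bind nascent and unfolded chains and hold them in solution. Of the 11 chaperones 9 rose in the double group, 10 in Men1flf RIP-Cre and 10 in Rbp2flf RIP-Cre islets. Their median log2 fold change was 0.55 in the double group, 0.67 in Men1flf RIP-Cre and 0.75 in Rbp2flf RIP-Cre islets. Over all genes 13.0% rose in the double group, 15.7% in Men1flf RIP-Cre and 6.7% in Rbp2flf RIP-Cre islets. In the brightest level class 39.8% rose in the double group, 40.7% in Men1flf RIP-Cre and 25.7% in Rbp2flf RIP-Cre islets. Dnajb9 (ERdj4), a J-domain cochaperone of BiP that also represses Ire1, had the highest fold changes. Its values were 9.98, 11.58, 10.65 and 11.55 in the double group, 11.59, 11.17 and 11.68 in Men1flf RIP-Cre, and 11.18, 10.70, 10.96 and 10.67 in Rbp2flf RIP-Cre islets. They were 9.78, 10 and 8.74 in RIP-Cre and 9.54, 10.63 and 9.45 in wt islets. All arrays of Men1flf RIP-Cre and of Rbp2flf RIP-Cre lay above those of RIP-Cre, while double group array 1 fell within the RIP-Cre range and wt array 2 came close to the lower Rbp2flf RIP-Cre arrays. Dnajb9 was 2.70-fold higher in the double group (log2 fold change 1.43, SE 0.38, adjusted p = 0.0118 by limma). In Men1flf RIP-Cre islets it was 3.93-fold higher (1.97, SE 0.40, adjusted p = 0.00176) and in Rbp2flf RIP-Cre islets 2.59-fold higher (1.37, SE 0.38, adjusted p = 0.0314). The call held after cyclic loess in all 3 groups, with log2 fold changes of 1.22 in the double group, 1.76 in Men1flf RIP-Cre and 1.18 in Rbp2flf RIP-Cre islets. Of 26 alternative settings it held under 23 in the double group, 25 in Men1flf RIP-Cre and 20 in Rbp2flf RIP-Cre islets. With the array median as a covariate all 3 calls were lost. Without RIP-Cre array 3, at 8.74, those in the double group and in Rbp2flf RIP-Cre islets were lost. The Rbp2flf RIP-Cre call was also lost with wt as the control.

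Canx (calnexin), a membrane lectin that holds glycoproteins while they fold, had 12.35, 12.91, 12.40 and 12.84 in the double group and 12.71, 12.69 and 12.74 in Men1flf RIP-Cre islets. It had 12.73, 12.64, 12.53 and 12.60 in Rbp2flf RIP-Cre, 12.03, 11.91 and 11.73 in RIP-Cre, and 11.87, 12.34 and 11.61 in wt islets. Every array of the 3 floxed groups was above every RIP-Cre array. The log2 fold change was 0.73 in the double group (SE 0.16, limma adjusted p = 0.0049), 0.82 in Men1flf RIP-Cre (SE 0.17, adjusted p = 0.0018) and 0.73 in Rbp2flf RIP-Cre islets (SE 0.16, adjusted p = 0.0155). After cyclic loess it was 0.32 in the double group, 0.42 in Men1flf RIP-Cre and 0.37 in Rbp2flf RIP-Cre islets, still called in each. With the array median as a covariate all 3 calls were lost, and without RIP-Cre array 3 the Rbp2flf RIP-Cre call was lost.

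Hspa5 (BiP), the Hsp70 of the ER and the master regulator of the sensors, is described because of that role and was picked with its values known. It had 12.53, 12.97, 12.62 and 13.04 in the double group, 12.74, 12.70 and 12.93 in Men1flf RIP-Cre, and 13.04, 12.95, 12.84 and 12.81 in Rbp2flf RIP-Cre islets. It had 12.12, 12.25 and 11.84 in RIP-Cre and 11.97, 12.76 and 11.81 in wt islets. No floxed array reached down to the RIP-Cre arrays, but wt array 2 lay among the floxed ones. Hspa5 was 1.65-fold higher in the double group (log2 fold change 0.72, SE 0.19, limma adjusted p = 0.0109), 1.65-fold in Men1flf RIP-Cre (0.72, SE 0.20, adjusted p = 0.0083) and 1.79-fold in Rbp2flf RIP-Cre islets (0.84, SE 0.19, adjusted p = 0.0171). After cyclic loess the call was lost in the double group (0.28, adjusted p = 0.0834) and in Men1flf RIP-Cre (0.29, adjusted p = 0.0762) and held in Rbp2flf RIP-Cre islets (0.46, adjusted p = 0.0284).

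Dnajb11 (ERdj3), a cochaperone that brings unfolded clients to BiP, was the chaperone with the weakest change. It had 9.62, 9.86, 9.82 and 10.21 in the double group, 9.91, 9.73 and 10.04 in Men1flf RIP-Cre, and 10.18, 10.21, 10.23 and 10.02 in Rbp2flf RIP-Cre islets. It had 9.65, 9.94 and 9.45 in RIP-Cre and 9.28, 10.04 and 9.34 in wt islets. The double group and Men1flf RIP-Cre overlapped RIP-Cre and only the Rbp2flf RIP-Cre arrays were all above it. None of the 3 log2 fold changes passed: 0.20 in the double group (limma adjusted p = 0.367), 0.21 in Men1flf RIP-Cre (adjusted p = 0.329) and 0.48 in Rbp2flf RIP-Cre islets (adjusted p = 0.0664).

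The other chaperones were read in the same way. Manf, a secreted protein of the ER lumen that interacts with BiP, was 1.76-fold higher in the double group, 1.67-fold in Men1flf RIP-Cre and 1.68-fold in Rbp2flf RIP-Cre islets. It kept its call after cyclic loess in each (log2 fold change 0.58 in the double group, 0.50 in Men1flf RIP-Cre and 0.54 in Rbp2flf RIP-Cre islets). With the array median as a covariate all 3 calls of Manf were lost, and without RIP-Cre array 3 its Rbp2flf RIP-Cre call was lost. Sdf2l1, which stabilises the cycle of BiP with its cochaperones, was 1.57-fold higher in the double group, 1.79-fold in Men1flf RIP-Cre and 1.73-fold in Rbp2flf RIP-Cre islets, and after cyclic loess it was called in Men1flf RIP-Cre islets alone (0.52, limma adjusted p = 0.0423). Hsp90b1 (Grp94), the Hsp90 of the ER, was 1.33-fold higher in the double group, 1.49-fold in Men1flf RIP-Cre and 1.53-fold in Rbp2flf RIP-Cre islets. Hyou1 (Grp170), a nucleotide exchange factor of BiP, was 1.42-fold higher in the double group, 1.52-fold in Men1flf RIP-Cre and 1.58-fold in Rbp2flf RIP-Cre islets. Calr (calreticulin), the soluble relative of calnexin, was 1.40-fold higher in the double group, 1.48-fold in Men1flf RIP-Cre and 1.51-fold in Rbp2flf RIP-Cre islets. After cyclic loess Hsp90b1, Hyou1 and Calr were called in none of the 3 groups. Dnajc3 (p58IPK), a cochaperone of BiP, rose by log2 fold changes of 0.51 in the double group, 0.53 in Men1flf RIP-Cre and 0.76 in Rbp2flf RIP-Cre islets, and its 2 probe sets held equal values. After cyclic loess its call held in Rbp2flf RIP-Cre islets alone (0.47, limma adjusted p = 0.0428). Creld2, an ER protein with isomerase activity that ER stress induces, rose in Men1flf RIP-Cre (0.67, limma adjusted p = 0.0239) and Rbp2flf RIP-Cre islets (0.80, adjusted p = 0.0301) and had 0.55 in the double group (adjusted p = 0.0592). After cyclic loess both calls were lost, with 0.37 in Men1flf RIP-Cre (adjusted p = 0.137) and 0.54 in Rbp2flf RIP-Cre islets (adjusted p = 0.0634).

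**Figure D4:**
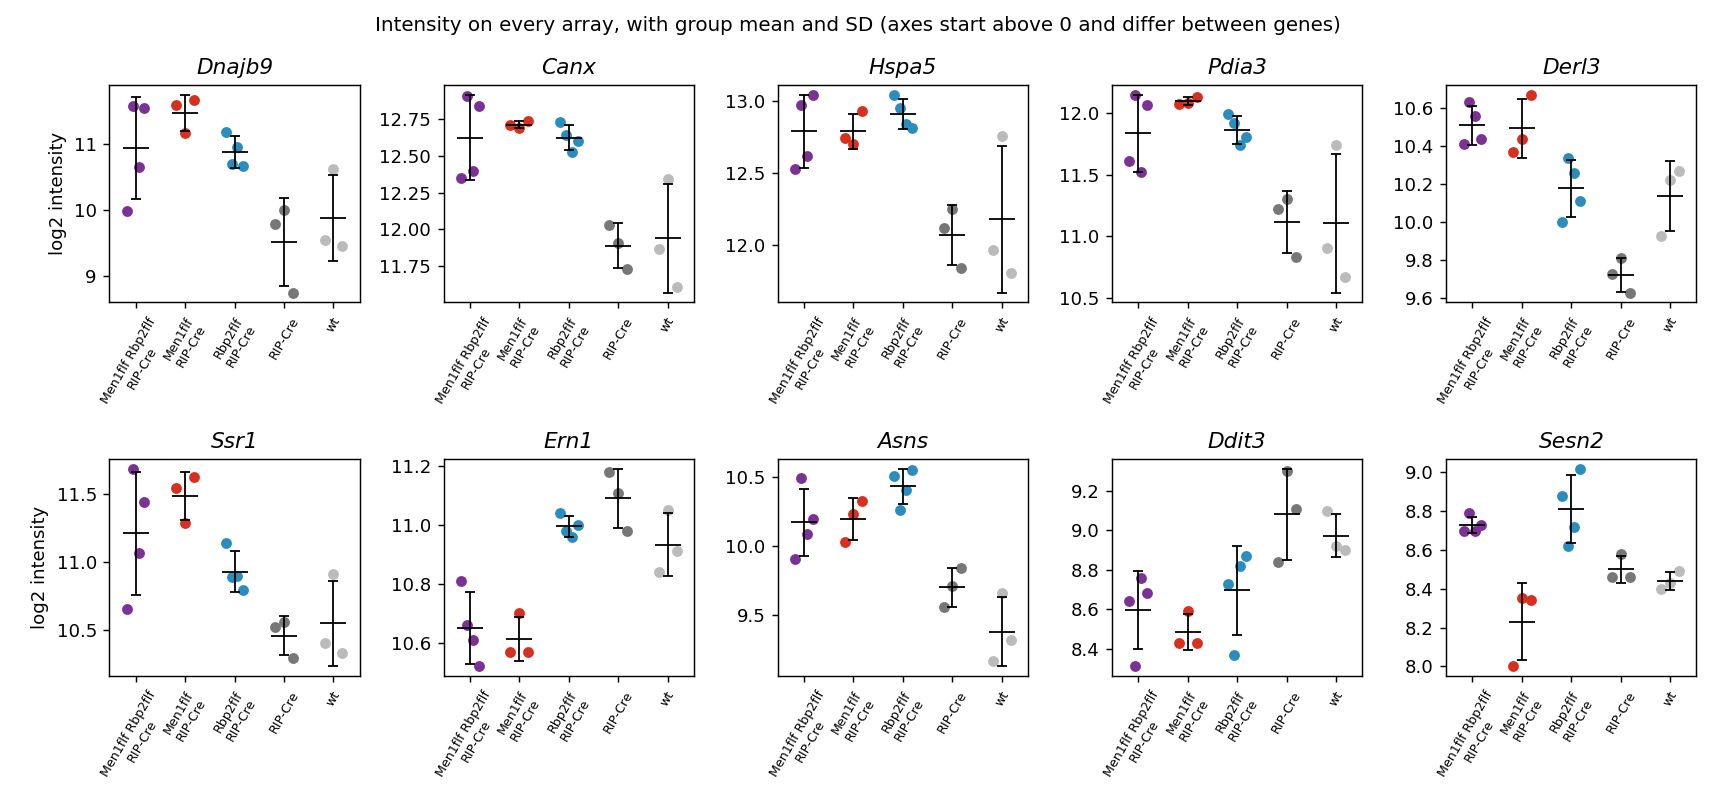
Log2 value of Dnajb9, Canx, Hspa5, Pdia3, Derl3, Ssr1, Ern1, Asns, Ddit3 and Sesn2 on each array, 1 panel per gene, with groups from the double group on the left to wt on the right. Points are arrays and bars are group means with SD. Canx of the floxed groups lies at 12.35 and above and of RIP-Cre at 12.03 and below, and Ern1 of the double group and of Men1flf RIP-Cre lies at 10.81 and below, under every RIP-Cre array.

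Disulfide isomerases form and reshuffle the disulfide bonds of secreted proteins, proinsulin among them. Of the 4 isomerases 2 rose in the double group, 3 in Men1flf RIP-Cre and 4 in Rbp2flf RIP-Cre islets. Over all genes 13.0% rose in the double group, 15.7% in Men1flf RIP-Cre and 6.7% in Rbp2flf RIP-Cre islets. In the brightest level class these shares were 39.8%, 40.7% and 25.7%. In each group every array of all 4 isomerases was above the RIP-Cre arrays. Over all genes this held for 14.2% in the double group, 18.7% in Men1flf RIP-Cre and 11.6% in Rbp2flf RIP-Cre islets. Pdia3 (ERp57), the isomerase that works with calnexin and calreticulin, had 11.61, 12.14, 11.52 and 12.06 in the double group and 12.07, 12.08 and 12.13 in Men1flf RIP-Cre islets. It had 11.99, 11.92, 11.74 and 11.80 in Rbp2flf RIP-Cre, 11.22, 11.30 and 10.83 in RIP-Cre, and 10.91, 11.74 and 10.67 in wt islets. The 3 arrays of Men1flf RIP-Cre lay close together and above all control arrays. Pdia3 was 1.64-fold higher in the double group (log2 fold change 0.72, SE 0.21, limma adjusted p = 0.0177), 1.97-fold in Men1flf RIP-Cre (0.98, SE 0.22, adjusted p = 0.00305) and 1.68-fold in Rbp2flf RIP-Cre islets (0.75, SE 0.21, adjusted p = 0.0323). After cyclic loess only the Men1flf RIP-Cre call held (0.65, adjusted p = 0.00493).

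Pdia4 (ERp72), an isomerase with several thioredoxin domains, had 11.06, 11.59, 11.15 and 11.54 in the double group, 11.34, 11.29 and 11.54 in Men1flf RIP-Cre, and 11.57, 11.64, 11.51 and 11.38 in Rbp2flf RIP-Cre islets. It had 10.72, 10.90 and 10.54 in RIP-Cre and 10.43, 11.40 and 10.48 in wt islets. The floxed groups overlapped each other and lay above RIP-Cre, and wt array 2 stood apart from the other wt arrays. It rose in the double group (log2 fold change 0.61, limma adjusted p = 0.0254), in Men1flf RIP-Cre (0.67, adjusted p = 0.0146) and in Rbp2flf RIP-Cre islets (0.81, adjusted p = 0.0221). With cyclic loess the call held in Rbp2flf RIP-Cre islets (0.55, adjusted p = 0.0371) and was lost in the double group (0.33, adjusted p = 0.119) and in Men1flf RIP-Cre islets (0.39, adjusted p = 0.0791). A second, dimmer Pdia4 probe set, with a mean of 7.97, gave -0.01 in the double group and -0.05 in Rbp2flf RIP-Cre islets, so the 2 probe sets of this gene disagree.

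Pdia6 (P5), an isomerase that also binds Ire1, had 11.42, 11.78, 11.43 and 11.89 in the double group, 11.53, 11.63 and 11.90 in Men1flf RIP-Cre, and 11.93, 12, 11.76 and 11.82 in Rbp2flf RIP-Cre islets. It had 11.31, 11.20 and 10.96 in RIP-Cre and 10.80, 11.74 and 10.80 in wt islets. The Rbp2flf RIP-Cre arrays were the highest as a group and RIP-Cre did not reach them. The log2 fold change was 0.47 in the double group (limma adjusted p = 0.0655), 0.53 in Men1flf RIP-Cre (adjusted p = 0.0397) and 0.72 in Rbp2flf RIP-Cre islets (adjusted p = 0.029). After cyclic loess both calls were lost, with 0.21 in Men1flf RIP-Cre (adjusted p = 0.298) and 0.44 in Rbp2flf RIP-Cre islets (adjusted p = 0.0604). P4hb, the classical protein disulfide isomerase, had 12.44, 12.73, 12.25 and 12.66 in the double group, 12.39, 12.57 and 12.57 in Men1flf RIP-Cre, and 12.79, 12.82, 12.73 and 12.67 in Rbp2flf RIP-Cre islets. It had 12.22, 12.15 and 11.95 in RIP-Cre and 11.90, 12.63 and 11.74 in wt islets. Double group array 3 lay just above the highest RIP-Cre array, and the Rbp2flf RIP-Cre arrays were clear of it. P4hb rose in Rbp2flf RIP-Cre islets (0.65, limma adjusted p = 0.0262) and had 0.41 in the double group (adjusted p = 0.0628) and 0.40 in Men1flf RIP-Cre islets (adjusted p = 0.0641). After cyclic loess it was at -0.01 in the double group and in Men1flf RIP-Cre and at 0.28 in Rbp2flf RIP-Cre islets, with no call.

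Of the 7 ERAD genes 5 rose in the double group, 3 in Men1flf RIP-Cre and 2 in Rbp2flf RIP-Cre islets. Over all genes 13.0% rose in the double group, 15.7% in Men1flf RIP-Cre and 6.7% in Rbp2flf RIP-Cre islets. In the brightest level class, which holds most ERAD genes listed, these shares were 39.8%, 40.7% and 25.7%. The ERAD counts in Men1flf RIP-Cre and Rbp2flf RIP-Cre islets are near the shares of that class. The 3 derlins, membrane proteins of the channel through which misfolded proteins leave the ER, rose in the double group and in Men1flf RIP-Cre islets, and 1 of them, Derl3, rose in Rbp2flf RIP-Cre islets. Derl3 had 10.41, 10.63, 10.56 and 10.44 in the double group, 10.37, 10.44 and 10.67 in Men1flf RIP-Cre, and 10, 10.34, 10.26 and 10.11 in Rbp2flf RIP-Cre islets. It had 9.73, 9.81 and 9.63 in RIP-Cre and 9.93, 10.22 and 10.27 in wt islets. The double group and Men1flf RIP-Cre were above all RIP-Cre and all wt arrays, while Rbp2flf RIP-Cre was above RIP-Cre and overlapped wt. Derl3 was 1.73-fold higher in the double group (log2 fold change 0.79, SE 0.11, limma adjusted p = 0.000583), 1.71-fold in Men1flf RIP-Cre (0.77, SE 0.12, adjusted p = 0.000336) and 1.37-fold in Rbp2flf RIP-Cre islets (0.45, SE 0.11, adjusted p = 0.0224). In the double group and in Men1flf RIP-Cre islets this call held under all 26 alternative settings that were run, wt islets as the control among them, with log2 fold changes of 0.37 to 0.83 in the double group and 0.35 to 0.83 in Men1flf RIP-Cre islets. In Rbp2flf RIP-Cre islets it held under 20 of the 26, and the lowest value was 0.04. Not all of the 26 settings could move these log2 fold changes. Derl3 has 1 probe set, so the second-probe-set setting read the same values. Leaving out an array of a group outside the comparison changes only the estimate of spread.

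Derl1 rose by a log2 fold change of 0.60 in the double group (limma adjusted p = 0.00457) and 0.65 in Men1flf RIP-Cre islets (adjusted p = 0.0021), and had 0.33 in Rbp2flf RIP-Cre islets (adjusted p = 0.0783). Derl2 rose by 0.67 in the double group (adjusted p = 0.0104) and 0.75 in Men1flf RIP-Cre islets (adjusted p = 0.00446), and had 0.42 in Rbp2flf RIP-Cre islets (adjusted p = 0.0929). Both kept their calls after cyclic loess. Whether the derlins changed more with Men1 loss than with Rbp2 loss was not tested directly; in the double group against Rbp2flf RIP-Cre none of the 3 was called.

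Herpud1 (Herp), a membrane protein that gathers ERAD complexes and whose promoter carries ERSE-II and CARE, had 11.67, 11.75, 11.58 and 11.81 in the double group, 11.38, 11.01 and 11.15 in Men1flf RIP-Cre, and 11.78, 11.24, 11.75 and 11.53 in Rbp2flf RIP-Cre islets. It had 11.10, 11.43 and 11.36 in RIP-Cre and 11.17, 11.66 and 11.07 in wt islets. The double group lay above RIP-Cre, and the other 2 floxed groups overlapped it. The log2 fold change was 0.41 in the double group (limma adjusted p = 0.0497), -0.12 in Men1flf RIP-Cre (adjusted p = 0.549) and 0.28 in Rbp2flf RIP-Cre islets (adjusted p = 0.182). After cyclic loess it was 0.10 in the double group and -0.43 in Men1flf RIP-Cre islets (adjusted p = 0.0399), so the only call moved from one group to the other with the scaling.

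Edem1, a lectin that takes misfolded glycoproteins to ERAD, had 10.43, 10.63, 10.55 and 10.74 in the double group, 10.84, 10.62 and 10.99 in Men1flf RIP-Cre, and 10.76, 10.41, 10.61 and 10.52 in Rbp2flf RIP-Cre islets. It had 10.64, 10.90 and 10.45 in RIP-Cre and 10.35, 11.04 and 10.30 in wt islets. All 5 groups overlapped. Its log2 fold changes were -0.08 in the double group (limma adjusted p = 0.721), 0.15 in Men1flf RIP-Cre (adjusted p = 0.455) and -0.09 in Rbp2flf RIP-Cre islets (adjusted p = 0.691). Syvn1 (Hrd1), the ubiquitin ligase of ERAD, rose in the double group (0.44, adjusted p = 0.014) and had 0.07 in Men1flf RIP-Cre (adjusted p = 0.666) and 0.35 in Rbp2flf RIP-Cre islets (adjusted p = 0.0591). Sel1l, the adaptor of that ligase, had 0.25 in the double group (adjusted p = 0.103) and 0.21 in Men1flf RIP-Cre islets (adjusted p = 0.157) and rose by 0.38 in Rbp2flf RIP-Cre islets (adjusted p = 0.0441). After cyclic loess neither Syvn1 nor Sel1l was called in any of the 3 groups.

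At the translocon, Ssr1 (TRAP alpha), a subunit of the complex that helps chains into the channel, had 10.65, 11.69, 11.07 and 11.44 in the double group, 11.55, 11.29 and 11.63 in Men1flf RIP-Cre, and 11.14, 10.89, 10.90 and 10.79 in Rbp2flf RIP-Cre islets. It had 10.52, 10.56 and 10.29 in RIP-Cre and 10.40, 10.91 and 10.33 in wt islets. All 3 floxed groups were above RIP-Cre, Men1flf RIP-Cre was above Rbp2flf RIP-Cre, and the double group spanned both. Ssr1 was 1.69-fold higher in the double group (log2 fold change 0.76, SE 0.20, limma adjusted p = 0.0115), 2.05-fold in Men1flf RIP-Cre (1.03, SE 0.21, adjusted p = 0.00176) and 1.39-fold in Rbp2flf RIP-Cre islets (0.47, SE 0.20, adjusted p = 0.0963). The calls in the double group and in Men1flf RIP-Cre held after cyclic loess, at 0.50 in the double group and 0.78 in Men1flf RIP-Cre islets.

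Sec61a1, the pore-forming subunit, had 11.94, 12.39, 11.94 and 12.31 in the double group, 12.04, 12.01 and 12.18 in Men1flf RIP-Cre, and 12.27, 12.09, 12.11 and 12.08 in Rbp2flf RIP-Cre islets. It had 11.58, 11.79 and 11.43 in RIP-Cre and 11.49, 12 and 11.40 in wt islets. All floxed arrays lay above RIP-Cre. The log2 fold changes were 0.54 in the double group (limma adjusted p = 0.0125), 0.48 in Men1flf RIP-Cre (adjusted p = 0.0186) and 0.54 in Rbp2flf RIP-Cre islets (adjusted p = 0.0301). After cyclic loess they were 0.18 in the double group, 0.12 in Men1flf RIP-Cre and 0.21 in Rbp2flf RIP-Cre islets, with no call. Sec61b, a small subunit of the same channel, had 9.78, 10.05, 10.02 and 10.29 in the double group, 10.09, 9.98 and 10.12 in Men1flf RIP-Cre, and 10.26, 9.97, 10.19 and 10.02 in Rbp2flf RIP-Cre islets. It had 9.87, 9.68 and 9.70 in RIP-Cre and 9.52, 10.17 and 9.39 in wt islets. Double group array 1 lay within RIP-Cre and the other floxed arrays above it. None of its changes passed, with 0.28 in the double group (adjusted p = 0.153), 0.31 in Men1flf RIP-Cre (adjusted p = 0.116) and 0.36 in Rbp2flf RIP-Cre islets (adjusted p = 0.104).

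The genes of the sensor group did not move as one. Ern1, which encodes Ire1 alpha, fell in the double group and in Men1flf RIP-Cre islets. It had 10.81, 10.66, 10.61 and 10.52 in the double group, 10.57, 10.70 and 10.57 in Men1flf RIP-Cre, and 11.04, 10.98, 10.96 and 11 in Rbp2flf RIP-Cre islets. It had 11.18, 11.11 and 10.98 in RIP-Cre and 10.84, 11.05 and 10.91 in wt islets. The double group and Men1flf RIP-Cre were below every RIP-Cre and every wt array, and the 4 arrays of Rbp2flf RIP-Cre sat together within the wt range and overlapped RIP-Cre. The log2 fold change was -0.44 in the double group (SE 0.09, limma adjusted p = 0.0033), -0.48 in Men1flf RIP-Cre (SE 0.09, adjusted p = 0.00132) and -0.10 in Rbp2flf RIP-Cre islets (SE 0.09, adjusted p = 0.414). Ern1 and Derl3 were the members whose calls held under all 26 alternative settings in both the double group and Men1flf RIP-Cre islets; Ern1 ranged from -0.68 to -0.28 in the double group and from -0.72 to -0.32 in Men1flf RIP-Cre islets. As for Derl3, not all of the 26 settings could move the Ern1 values. After cyclic loess the Rbp2flf RIP-Cre value was -0.31 (adjusted p = 0.0264), so that Ern1 was then lower in all 3 floxed groups.

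Atf6, the sensor that is itself cleaved to a transcription factor, had 10.70, 10.90, 10.74 and 10.87 in the double group, 10.87, 10.73 and 10.80 in Men1flf RIP-Cre, and 10.89, 10.62, 10.71 and 10.60 in Rbp2flf RIP-Cre islets. It had 10.32, 10.61 and 9.95 in RIP-Cre and 10.22, 10.42 and 10.27 in wt islets. The double group and Men1flf RIP-Cre were above all control arrays, and 1 Rbp2flf RIP-Cre array fell just under the highest RIP-Cre array. Atf6 rose in the double group (log2 fold change 0.51, limma adjusted p = 0.00877), in Men1flf RIP-Cre (0.51, adjusted p = 0.0067) and in Rbp2flf RIP-Cre islets (0.41, adjusted p = 0.042). Its Rbp2flf RIP-Cre call was lost after cyclic loess (0.22, adjusted p = 0.135). Wfs1, an ER membrane protein that restrains Atf6 and is mutated in Wolfram syndrome, had 10.46, 10.74, 10.45 and 10.74 in the double group, 10.19, 10.28 and 10.46 in Men1flf RIP-Cre, and 10.79, 10.72, 10.88 and 10.68 in Rbp2flf RIP-Cre islets. It had 10.31, 10.52 and 10.10 in RIP-Cre and 10.17, 10.51 and 10.17 in wt islets. Men1flf RIP-Cre lay within the RIP-Cre range and Rbp2flf RIP-Cre above it. Wfs1 rose in Rbp2flf RIP-Cre islets (0.46, limma adjusted p = 0.0283) and had 0.29 in the double group (adjusted p = 0.0741) and 0.00 in Men1flf RIP-Cre islets (adjusted p = 1). That call was lost after cyclic loess (0.28, adjusted p = 0.0723).

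Xbp1, the factor activated by Ire1 splicing, rose by 0.35 in the double group (limma adjusted p = 0.0341), 0.44 in Men1flf RIP-Cre (adjusted p = 0.0104) and 0.37 in Rbp2flf RIP-Cre islets (adjusted p = 0.0495). After cyclic loess it had 0.05 in the double group, 0.13 in Men1flf RIP-Cre and 0.10 in Rbp2flf RIP-Cre islets, with no call. The probe set reads the gene as a whole and does not tell the spliced form from the unspliced one. Eif2ak3, which encodes Perk, had 0.24 in the double group (adjusted p = 0.103), 0.08 in Men1flf RIP-Cre (adjusted p = 0.574) and 0.17 in Rbp2flf RIP-Cre islets (adjusted p = 0.252).

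**Figure D5:**
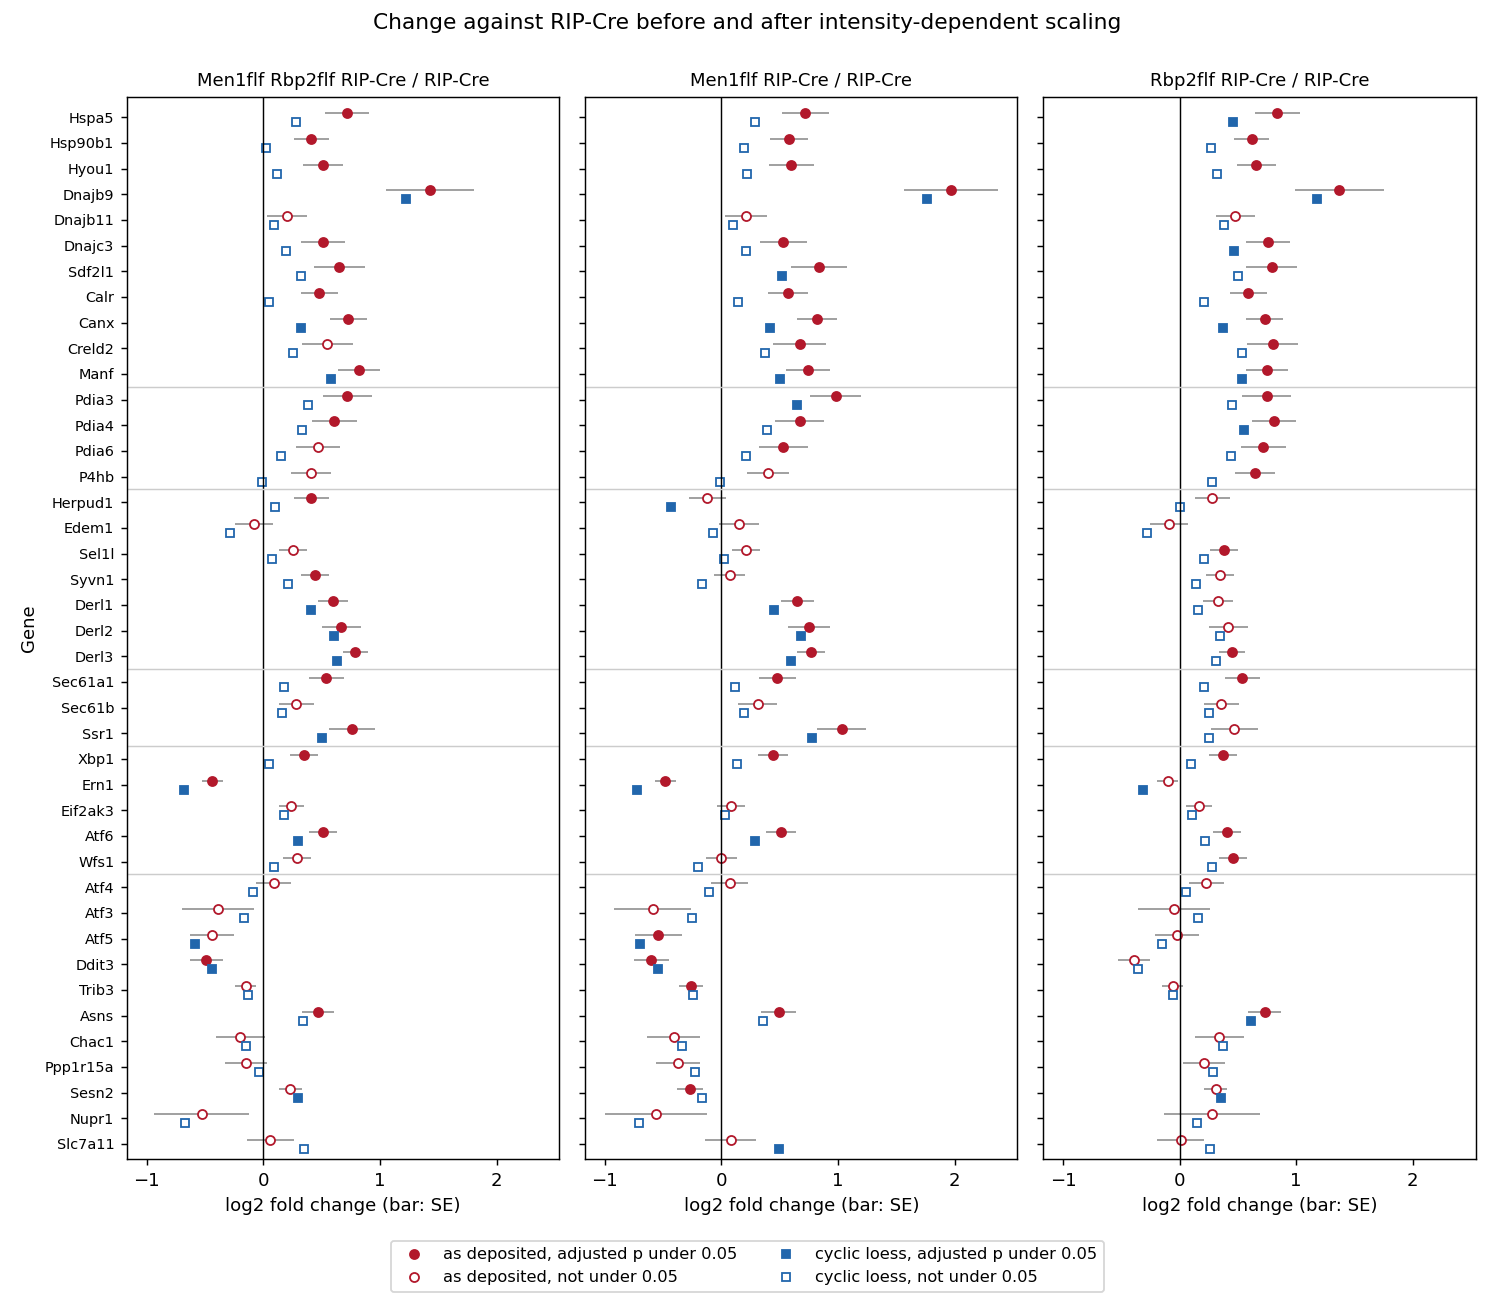
Log2 fold change against RIP-Cre islets of each of the 41 genes in the double group, Men1flf RIP-Cre and Rbp2flf RIP-Cre islets (1 panel each), on the deposited values with SE bars and after cyclic loess, with filled markers for an adjusted p under 0.05. After cyclic loess the ER-arm medians are 0.18 in the double group, 0.21 in Men1flf RIP-Cre and 0.28 in Rbp2flf RIP-Cre islets, while Dnajb9, Canx and Manf stay filled in all 3 panels.

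In the Atf4-Ddit3 arm Asns rose in all 3 floxed groups, Atf5, Trib3, Sesn2 and Ddit3 fell in Men1flf RIP-Cre islets, and Ddit3 fell in the double group as well. Ddit3 (Chop), the factor linked to cell death in prolonged ER stress, had 8.64, 8.31, 8.76 and 8.68 in the double group, 8.43, 8.59 and 8.43 in Men1flf RIP-Cre, and 8.73, 8.37, 8.82 and 8.87 in Rbp2flf RIP-Cre islets. It had 8.84, 9.30 and 9.11 in RIP-Cre and 9.10, 8.92 and 8.90 in wt islets. Every array of the double group and of Men1flf RIP-Cre was below every control array, and 1 array of Rbp2flf RIP-Cre was above the lowest RIP-Cre array. Its log2 fold change was -0.49 in the double group (SE 0.14, limma adjusted p = 0.0159), -0.60 in Men1flf RIP-Cre (SE 0.15, adjusted p = 0.00453) and -0.39 in Rbp2flf RIP-Cre islets (SE 0.14, adjusted p = 0.0634). After cyclic loess the calls in the double group (-0.44) and in Men1flf RIP-Cre islets (-0.54) held.

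Asns (asparagine synthetase), a target of Atf4 in amino acid shortage with a CARE just before its start, was the member of this arm that rose. It had 9.91, 10.49, 10.09 and 10.20 in the double group, 10.03, 10.23 and 10.33 in Men1flf RIP-Cre, and 10.51, 10.26, 10.41 and 10.55 in Rbp2flf RIP-Cre islets. It had 9.56, 9.71 and 9.84 in RIP-Cre and 9.17, 9.66 and 9.32 in wt islets. All floxed arrays lay above all control arrays, and Rbp2flf RIP-Cre had the highest mean. Asns was 1.38-fold higher in the double group (log2 fold change 0.47, SE 0.14, limma adjusted p = 0.0199), 1.41-fold in Men1flf RIP-Cre (0.49, SE 0.15, adjusted p = 0.013) and 1.66-fold in Rbp2flf RIP-Cre islets (0.73, SE 0.14, adjusted p = 0.0112). After cyclic loess only the Rbp2flf RIP-Cre call held (0.61, adjusted p = 0.0191).

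Sesn2 (sestrin 2), a stress gene that restrains mTORC1 signalling, was called in 1 group on the deposited values, as lower in Men1flf RIP-Cre islets. It had 8.70, 8.79, 8.70 and 8.73 in the double group, 8, 8.35 and 8.34 in Men1flf RIP-Cre, and 8.88, 8.62, 8.72 and 9.02 in Rbp2flf RIP-Cre islets. It had 8.46, 8.58 and 8.46 in RIP-Cre and 8.40, 8.43 and 8.49 in wt islets. The double group and Rbp2flf RIP-Cre were above both controls and Men1flf RIP-Cre was below both; these per-array values were picked for display after they were seen. The log2 fold change was 0.23 in the double group (limma adjusted p = 0.0892), -0.27 in Men1flf RIP-Cre (adjusted p = 0.0485) and 0.31 in Rbp2flf RIP-Cre islets (adjusted p = 0.0534). After cyclic loess the double group had 0.30 (adjusted p = 0.0418), Men1flf RIP-Cre -0.17 (adjusted p = 0.241) and Rbp2flf RIP-Cre 0.36 (adjusted p = 0.0412). The fall in Men1flf RIP-Cre islets was called in 8 of the 26 alternative settings, and on neither of these scalings was Sesn2 called in both directions.

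Atf4 itself had log2 fold changes of 0.09 in the double group, 0.07 in Men1flf RIP-Cre and 0.23 in Rbp2flf RIP-Cre islets, with no call. Atf5, a related factor, fell in Men1flf RIP-Cre islets (-0.54, limma adjusted p = 0.0347) and had -0.44 in the double group (adjusted p = 0.0805) and -0.02 in Rbp2flf RIP-Cre islets. Trib3, a pseudokinase induced by Atf4 and Ddit3 that restrains them, fell in Men1flf RIP-Cre islets (-0.26, adjusted p = 0.0385) and had -0.15 in the double group and -0.06 in Rbp2flf RIP-Cre islets. Chac1, which breaks down glutathione, had -0.20 in the double group, -0.41 in Men1flf RIP-Cre and 0.34 in Rbp2flf RIP-Cre islets, and Ppp1r15a (Gadd34), which reverses the translational block set by Perk, had -0.15 in the double group, -0.37 in Men1flf RIP-Cre and 0.21 in Rbp2flf RIP-Cre islets. Atf3 and Nupr1, a pair of stress-induced regulators, were not called either. Their spread was wide, with SEs of the log2 fold changes of 0.31 to 0.33 for Atf3 and 0.41 to 0.44 for Nupr1, so changes of the size seen in Ddit3 were not detectable in them. Slc7a11, the cystine transporter, was the dimmest member at 5.49 to 6.27 over all arrays and had changes of 0.06 in the double group, 0.08 in Men1flf RIP-Cre and 0.01 in Rbp2flf RIP-Cre islets.

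The 4 falls of this arm in Men1flf RIP-Cre islets stand beside 37.8% of all genes that fell there. Its 5 calls there numbered 3 after cyclic loess (Slc7a11 higher, Atf5 and Ddit3 lower), 3 without RIP-Cre array 1, without RIP-Cre array 2 or without Men1flf RIP-Cre array 3, 2 without RIP-Cre array 3 or without Men1flf RIP-Cre array 1, and 0 with the array median as a covariate. In the double group the calls of this arm numbered 2 with all arrays, 1 without any 1 of the 3 RIP-Cre arrays and 0 without double group array 2.

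The promoters were read against these changes as a description only. Of the 9 ER-arm genes with ERSE, 7 rose in the double group, 8 in Men1flf RIP-Cre and 8 in Rbp2flf RIP-Cre islets. Their median log2 fold change was 0.51 in the double group, 0.58 in Men1flf RIP-Cre and 0.72 in Rbp2flf RIP-Cre islets. Of the 16 ER-arm genes whose window lacks it, 8 rose in the double group, 7 in Men1flf RIP-Cre and 8 in Rbp2flf RIP-Cre islets. Their median was 0.38 in the double group, 0.36 in Men1flf RIP-Cre and 0.44 in Rbp2flf RIP-Cre islets, and Dnajb9, the member with the highest log2 fold changes, is among these 16. Over all genes 13.0% rose in the double group, 15.7% in Men1flf RIP-Cre and 6.7% in Rbp2flf RIP-Cre islets. After cyclic loess the medians with and without ERSE lay closer together. They were 0.21 and 0.13 in the double group, 0.21 and 0.12 in Men1flf RIP-Cre, and 0.37 and 0.26 in Rbp2flf RIP-Cre islets. In the Atf4-Ddit3 arm the 6 genes with CARE had medians of -0.18 in the double group, -0.34 in Men1flf RIP-Cre and 0.15 in Rbp2flf RIP-Cre islets. The 5 genes without it had medians of -0.15 in the double group, -0.37 in Men1flf RIP-Cre and 0.21 in Rbp2flf RIP-Cre islets.

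The double group was then set against each single deletion. Against Men1flf RIP-Cre islets 1 of the 41 genes was called, where 1.67% of all genes were: Sesn2 was higher in the double group, all 4 arrays above all 3 of Men1flf RIP-Cre (log2 difference 0.50, SE 0.10, limma adjusted p = 0.0173). Against Rbp2flf RIP-Cre islets 1 of the 41 was called, where 1.2% of all genes were: Ern1 was lower in the double group, all 4 arrays below all 4 of Rbp2flf RIP-Cre (-0.34, SE 0.08, adjusted p = 0.044). The Sesn2 call was lost in 3 of 25 alternative settings and the Ern1 call in 16, although the Ern1 difference stayed between -0.40 and -0.30. The median difference of the ER arm was -0.04 against Men1flf RIP-Cre and -0.05 against Rbp2flf RIP-Cre islets. That of the Atf4-Ddit3 arm was 0.11 against Men1flf RIP-Cre and -0.26 against Rbp2flf RIP-Cre islets.

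The interaction asks whether the change in the double group departs from the sum of the changes in the single deletions, and a value below 0 means less than the sum. Equal rises over RIP-Cre in all 3 floxed groups thus give a value below 0, and the same RIP-Cre arrays enter every change. Asns alone was called among the members (-0.75, SE 0.20, limma adjusted p = 0.0489), where 3.39% of all genes were called and 1.61% were called below 0. All 11 chaperones were below 0, with a median of -0.78 and adjusted p of 0.0512 to 0.149, and so were all 4 isomerases, with a median of -0.82 and adjusted p of 0.0547 to 0.0818. Dnajb9 had the lowest value (-1.91, SE 0.53, adjusted p = 0.0523). Of the 30 ER-arm genes 27 were below 0 (median -0.57) and 19 had an unadjusted p under 0.05, while the median over all genes was 0.20 and over the brightest level class -0.18. Cyclic loess gave an ER-arm median of -0.35 and the array-median covariate gave -0.18. Of the 41 members 21 had an unadjusted p under 0.05 by limma on the deposited values, 18 after cyclic loess and 2 with the covariate. Of all 19938 genes 7318 did on the deposited values, 5024 after cyclic loess and 1516 with the covariate. A low unadjusted p was thus common over the whole array. The Atf4-Ddit3 arm had 5 genes below and 6 above 0, with a median of 0.01. The count of members called was 0 after cyclic loess (504 of all genes), with the array median as a covariate (20) and without the 3 control arrays of high median (48). It was 14 with only the groups compared in the fit (1375 of all genes) and 15 without wt array 2 (2033). Without RIP-Cre array 3 it was 0 (36 of all genes), and the ER-arm median was -0.47. The calls of chaperones in the interaction thus change with the setting.

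RIP-Cre and wt islets were compared to see the change with Cre alone. None of the 41 genes was called, where 0.0% of all genes were; at an unadjusted p under 0.05 by limma there were 552 genes and 2 members. The median of the ER arm was 0.00, with 14 of 30 genes above 0. It was 0.18 without wt array 2 (28 above 0). Without the 3 control arrays of high median (wt arrays 1 and 3 and RIP-Cre array 3) it was -0.37 (2 above 0). In that setting wt array 2 is the only wt array left, so the value rests on that array. Derl3 was lower in RIP-Cre islets on every array (log2 difference -0.42, unadjusted p = 0.00261, adjusted p = 1). With 3 arrays a group and wt array 2 apart from the other wt arrays, small differences were not detectable: the SD of Hspa5 was 0.21 in RIP-Cre and 0.51 in wt islets.

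Other genes of the same pathways were listed by symbol, and 69 of 75 were measured. In the double group 30 rose and 2 fell, in Men1flf RIP-Cre islets 30 rose and 3 fell, and in Rbp2flf RIP-Cre islets 35 rose and 1 fell. Over all genes the shares were 13.0% and 20.6% in the double group, 15.7% and 37.8% in Men1flf RIP-Cre, and 6.7% and 6.7% in Rbp2flf RIP-Cre islets. After cyclic loess 19 of the 69 were higher and 3 lower in the double group, 23 and 6 in Men1flf RIP-Cre, and 20 and 1 in Rbp2flf RIP-Cre islets. The genes of ER entry encode signal peptidase, the signal recognition particle receptor and parts of the translocon or its partners. They moved alike: of 13, 13 rose in the double group, 11 in Men1flf RIP-Cre and 12 in Rbp2flf RIP-Cre islets. After cyclic loess 9 did in the double group, 10 in Men1flf RIP-Cre and 7 in Rbp2flf RIP-Cre islets. Spcs2, a subunit of signal peptidase, had 11.06, 11.93, 11.39 and 11.83 in the double group and 11.78, 11.53 and 11.74 in Men1flf RIP-Cre islets, against 10.51, 10.70 and 10.14 in RIP-Cre islets. All arrays of both were above RIP-Cre, and the log2 fold change was 1.10 in the double group (limma adjusted p = 0.0026) and 1.23 in Men1flf RIP-Cre islets (adjusted p = 0.00079). Spcs1, its partner subunit, rose by 1.12 in the double group (adjusted p = 0.00231) and 1.03 in Rbp2flf RIP-Cre islets (adjusted p = 0.012). Dnajc10 (ERdj5), a disulfide reductase of ERAD, rose by 0.85 in the double group (adjusted p = 0.00139) and 0.86 in Men1flf RIP-Cre islets (adjusted p = 0.000667). Tmx1, a membrane-bound oxidoreductase of the thioredoxin family, rose by 0.96 in Rbp2flf RIP-Cre islets (adjusted p = 0.0154).

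Of 22 further genes around Atf4, 4 rose and 1 fell in the double group, where 13.0% of all genes rose and 20.6% fell. In Men1flf RIP-Cre islets 4 rose and 1 fell, where 15.7% of all genes rose and 37.8% fell. In Rbp2flf RIP-Cre islets 7 rose and 1 fell, where 6.7% of all genes rose and 6.7% fell. The gene that fell each time was Cebpb, a C/EBP factor that pairs with Atf4 and with Ddit3. It had 9.25, 8.87, 9.12 and 8.87 in the double group, 9.02, 8.80 and 8.90 in Men1flf RIP-Cre, and 8.97, 8.92, 9.44 and 9.24 in Rbp2flf RIP-Cre islets, against 9.53, 9.41 and 9.68 in RIP-Cre islets. The double group and Men1flf RIP-Cre lay wholly below RIP-Cre and 1 array of Rbp2flf RIP-Cre overlapped it. Its log2 fold change was -0.51 in the double group (limma adjusted p = 0.00948), -0.63 in Men1flf RIP-Cre (adjusted p = 0.00238) and -0.40 in Rbp2flf RIP-Cre islets (adjusted p = 0.0496). After cyclic loess it was -0.53 in the double group, -0.65 in Men1flf RIP-Cre and -0.43 in Rbp2flf RIP-Cre islets. Slc3a2, a heavy chain of amino acid transporters, rose by 0.91 in Men1flf RIP-Cre islets (adjusted p = 0.000521) and Wars, the tryptophanyl-tRNA synthetase, by 0.52 in Rbp2flf RIP-Cre islets (adjusted p = 0.00708). Fkbp11, a prolyl isomerase of the ER, fell by 0.54 on the log2 scale in the double group (adjusted p = 0.028) and by 0.48 in Men1flf RIP-Cre islets (adjusted p = 0.039), and after cyclic loess both calls were lost (-0.48 in the double group, adjusted p = 0.0554, and -0.40 in Men1flf RIP-Cre islets, adjusted p = 0.106).

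The hormone genes Ins2 (13.54 to 13.74 over all arrays), Gcg (13.14 to 13.82) and Sst (12.92 to 14.21) were bright on every array. In whole islets a change in a gene can come from more cells of a type or from more RNA per cell, and these cannot be told apart here. The mean of 10 beta-cell markers was 12.38 to 12.56 in the double group, 12.55 to 12.63 in Men1flf RIP-Cre, 12.26 to 12.45 in Rbp2flf RIP-Cre, 11.62 to 12.19 in RIP-Cre and 11.84 to 12.18 in wt islets. Of the 10 markers 7 rose in the double group, 7 in Men1flf RIP-Cre and 3 in Rbp2flf RIP-Cre islets, and none fell, where 13.0% of all genes rose in the double group, 15.7% in Men1flf RIP-Cre and 6.7% in Rbp2flf RIP-Cre islets. After cyclic loess 3 were higher and 3 lower in the double group, 6 and 2 in Men1flf RIP-Cre, and 1 and 0 in Rbp2flf RIP-Cre islets. Acinar cells also hold much of this machinery. The mean of 13 of 16 listed acinar markers was 8.27 to 10.08 in the double group, 8.23 to 9.93 in Men1flf RIP-Cre, 8.11 to 9.10 in Rbp2flf RIP-Cre, 7.97 to 10.17 in RIP-Cre and 8.51 to 9.42 in wt islets. None of these 13 rose in any floxed group. In Men1flf RIP-Cre islets 1 fell, and 0 were lower there after cyclic loess. The highest acinar mean was on RIP-Cre array 3, the array with the lowest ER-arm mean of its group. The mean of 8 of 9 lymphocyte markers (of B and plasma cells, with Cd3e and Cd3g of T cells) was 6.61 to 7.95 in the double group, 6.70 to 6.78 in Men1flf RIP-Cre, 6.39 to 6.66 in Rbp2flf RIP-Cre, 6.59 to 7.01 in RIP-Cre and 6.89 to 8.19 in wt islets. Of these 8, 1 rose in the double group, 1 in Men1flf RIP-Cre and 0 in Rbp2flf RIP-Cre islets, and 0 fell. After cyclic loess 2 were higher in the double group, 2 in Men1flf RIP-Cre and 0 in Rbp2flf RIP-Cre islets. Of 8 macrophage markers 3 rose in the double group, 3 rose and 1 fell in Men1flf RIP-Cre, and 0 were called in Rbp2flf RIP-Cre islets; after cyclic loess 5 were higher in the double group, 5 in Men1flf RIP-Cre and 1 in Rbp2flf RIP-Cre islets. Of all genes 20.6% fell in the double group, 37.8% in Men1flf RIP-Cre and 6.7% in Rbp2flf RIP-Cre islets. After cyclic loess 13.9% of all genes were higher and 11.4% lower in the double group. Those shares were 18.4% and 16.0% in Men1flf RIP-Cre, and 5.61% and 3.81% in Rbp2flf RIP-Cre islets. Of 7 of 9 listed markers of other islet endocrine cells 3 fell in the double group and 4 in Men1flf RIP-Cre islets, and 5 were lower in each after cyclic loess. Of 8 endothelial markers 4 fell in the double group and 4 in Men1flf RIP-Cre islets, and 1 rose in Rbp2flf RIP-Cre islets. After cyclic loess 4 endothelial markers were lower in the double group, 3 in Men1flf RIP-Cre and 0 in Rbp2flf RIP-Cre islets. Of 5 of 7 listed duct markers 1 fell in the double group, 3 in Men1flf RIP-Cre and 1 in Rbp2flf RIP-Cre islets, and after cyclic loess 1 was lower in the double group and 0 in the other floxed groups. An array gives every marker an intensity and none is at 0; the part of these cells in the results was not tested. Of the targeted genes, Men1 fell in the double group (-0.77, limma adjusted p = 0.000558) and in Men1flf RIP-Cre islets (-1.06, adjusted p = 3.08e-05) and rose in Rbp2flf RIP-Cre islets (0.73, adjusted p = 0.00359). Kdm5a was at -0.02 in the double group, 0.19 in Men1flf RIP-Cre and -0.22 in Rbp2flf RIP-Cre islets with no call; which exons were floxed is not given in the sources used here, so its probe set does not check the Rbp2 deletion.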

How the data were processed

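Total RNA of isolated islets was hybridised to Affymetrix arrays, 1 sample an array, per the labels. The authors deposited log2 expression values for 35512 probe sets on 17 arrays. How background was corrected or arrays normalized is not given in the sources used here. Between arrays the 75th percentile varied little (8.92 to 8.95). Precision is limited by the number of arrays.

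Probe sets were named from GEO's platform annotation: 21789 had 1 gene symbol, 1621 several and 12102 none. The brightest single-gene probe set stood for each of 19938 genes, 999 of which had several. Group means were fitted over all 17 arrays with limma 3.58.1 in R 4.3.3 (lmFit, eBayes), Benjamini-Hochberg adjusted over all genes, with a call at an adjusted p under 0.05. The interaction is the change in the double group minus both single changes, all against RIP-Cre.

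Alternatives were a replicate block, cyclic loess, the array median as a covariate, only the groups compared, genes under the 25th percentile left out, an intensity trend with robust variances, the second probe set, 3 control arrays of high median left out, wt as the control, and each array left out in turn. Values on every array are given, in each role, for the members with the highest and lowest moderated t against RIP-Cre in each floxed group, and for members called in the interaction; Hspa5 and Sesn2 were added after their values were seen. Of the other pathway genes, those called were ranked by moderated t in each floxed group, and 3 at either end could be named. The members, lists and settings were chosen with earlier results of these data known. The 3 control arrays of high median were wt arrays 1 and 3 and RIP-Cre array 3. A gene with 1 probe set keeps it in the second-probe-set setting. Leaving out an array of a group outside a comparison changes the estimate of spread and not the log2 fold change. Promoter windows are those of RefSeq on GRCm38.p6.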

Additional observations from a re-analysis of the deposited data

Results flagged for a closer look

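Sec61a1 in Rbp2flf RIP-Cre islets had 1 array apart from the rest: array 1 was at 12.27 and the other 3 at 12.08 to 12.11. It was the 1 case in 82 groups of 4 arrays tested by Dixon's criterion, which chance alone meets in about 1 in 20 groups. Asns differed between the contrasts: its change in the double group was smaller than the sum of its changes in Men1flf RIP-Cre and Rbp2flf RIP-Cre islets, by -0.75 on the log2 scale (limma adjusted p = 0.0489), and this call was lost in 14 of 25 alternative settings.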

How the results depend on the processing

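Of the 30 ER-arm genes, those above 0 numbered 28 on the deposited values, 27 after cyclic loess and 26 with each array's median as a covariate in the double group, 27, 24 and 20 in Men1flf RIP-Cre, and 28, 28 and 27 in Rbp2flf RIP-Cre islets. Between the double group and Men1flf RIP-Cre they numbered 11, 10 and 24. Against RIP-Cre, 21 ER-arm and 2 Atf4-Ddit3 genes were called in the double group, 21 and 5 in Men1flf RIP-Cre, and 20 and 1 in Rbp2flf RIP-Cre islets. ER-arm calls after cyclic loess were 9 in the double group, 12 in Men1flf RIP-Cre and 7 in Rbp2flf RIP-Cre, with the array median as a covariate 2 in the double group, 2 in Men1flf RIP-Cre and 0 in Rbp2flf RIP-Cre, and without the 3 control arrays of high median 10 in the double group and 9 in Rbp2flf RIP-Cre. With that covariate 280 of all genes were called in the double group, 396 in Men1flf RIP-Cre and 42 in Rbp2flf RIP-Cre. Atf4-Ddit3 calls in the double group were 0 with the covariate and 1 without the 3 control arrays. In Men1flf RIP-Cre they were 3 with a replicate block, after cyclic loess or with only the groups compared, 2 without the 3 control arrays or with wt as the control, and 0 with the covariate. In Rbp2flf RIP-Cre they were 2 after cyclic loess, with dim genes left out, with an intensity trend or with wt as the control, and 0 with the covariate. Leaving out single arrays gave 5 to 24 ER-arm and 0 to 3 Atf4-Ddit3 calls in the double group, 12 to 23 and 2 to 6 in Men1flf RIP-Cre, 0 to 23 and 1 to 2 in Rbp2flf RIP-Cre, and 0 to 0 member calls for RIP-Cre against wt; in Rbp2flf RIP-Cre the 2 came without RIP-Cre array 1, Men1flf RIP-Cre array 1 or Rbp2flf RIP-Cre array 3. Between the double group and Men1flf RIP-Cre members called were 0 with a replicate block, 3 with the covariate, 2 with only the groups compared and 0 to 1 without single arrays. Between the double group and Rbp2flf RIP-Cre they were 0 with a replicate block or with only the groups compared, and 0 to 1 without single arrays. In the interaction they were 10 with a replicate block, 14 with only the groups compared, 5 with dim genes left out, 4 with an intensity trend, 0 after cyclic loess, with the covariate or without the 3 control arrays, and 0 to 15 without single arrays (15 without wt array 2, 9 without RIP-Cre array 2). Among members called on the deposited values the sign turned for Dnajc3 in Men1flf RIP-Cre with the covariate (-0.07) and for Pdia4 with its second probe set (-0.01 in the double group, -0.05 in Rbp2flf RIP-Cre). The cause of these changes was not tested. Over 31 pairs of same-numbered arrays the correlation of their deviations ran from -0.30 to 0.45 (median 0.01), with 10 pairs over 0.1. Of the 17 arrays 8 correlated best with an array of their own number. These values do not settle whether same-numbered arrays belong together. With the replicate block 1933 of all genes were called in the interaction, against 675 without it; it moved no other count of calls over all genes or over an arm by over 1.5 times beyond those given above.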
